A study of Mus musculus with 10 samples.

Results

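The libraries described here are 5 of the 10 in a series on immune cells of the mouse brain, chosen because at least 100 of their reads fell on Bpifa2, the gene of parotid secretory protein. The other 5 libraries held fewer than 100 such reads. Bpifa2, Smr3a and Car6 are genes of salivary glands and not known as markers of brain cells, so the split separates libraries with gland reads from libraries without. The members were chosen by the measured Bpifa2 reads, and each value set between both kinds of library is therefore a description that carries no test. The adjusted p-values printed for such values sorted the genes and support nothing.

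RNA came from cells of the substantia nigra and striatum of male C57BL/6 mice that had received an adeno-associated virus of serotype 1/2 at 10 to 12 weeks of age, 16 weeks before isolation at 26 to 28 weeks. A53T mice received the virus with human α-synuclein carrying the A53T mutation, and EV mice received the empty virus. Cells were freed with collagenase and collected from a Percoll gradient, a density step that enriches immune cells, and the labels name no cell sort, no injection site and no promoter for the transgene. The libraries with gland reads were A53T replicates 1 and 2 and EV replicates 1, 2 and 3. The libraries without were A53T replicates 3, 4 and 5 and EV replicates 4 and 5. Each group had 5 mice, all were injected, and both vectors occur on both sides of the split. In both vectors replicates 1 and 2 had gland reads and replicates 4 and 5 did not, and only number 3 differed between the vectors. The split thus followed the replicate number closely and, number 3 aside, cannot be told apart from it.

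Salivary glands are made of acini, which make and export large amounts of a few proteins, and of ducts, which modify the fluid and add proteins of their own, such as kallikreins in the mouse. Parotid acini are known for amylase and parotid secretory protein, and sublingual and submandibular acini for mucins. None of these tissues lies in the brain regions that were dissected.

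Library totals were 12386305 to 21780086 counts in the libraries with gland reads and 14323389 to 19068813 in those without. Mitochondrial ribosomal RNA, the sum of mt-Rnr1 and mt-Rnr2, was 31.8 to 50.9% of the counts in the libraries with gland reads, with a median of 46.1%, and 10.9 to 43.9% in those without, with a median of 33.4%. This share entered the fit across genes as a covariate. All 10 libraries held microglial, neuronal, astrocytic and oligodendrocytic transcripts, so the label of immune cells covers a mixture. A53T replicate 3, a library without gland reads, held 10 reads of the transgene, while the other 4 A53T libraries held 1217 to 2223.

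The promoters of Bpifa2 and of 5 genes that were high with it are shown because the question is which genes come along with it, and because 1 of them, Amy1, starts at 2 places. Each line gives the 100 bases that end just before the start site, 5′ to 3′ on the strand of the gene, from RefSeq on build GRCm38.p6, with TATAA in capitals where it occurs. The first line is Bpifa2, at chr2:154008176-154008275 on the plus strand. The next are Smr3a at chr5:88002425-88002524 on the plus strand, a start that lies within the row counted for this gene, with the window beginning 10870 bases after the start of the row, Car6 at chr4:150201136-150201235 on the minus strand, and Chia1 and Pip at chr3:106113282-106113381 and chr6:41847449-41847548, both on the plus strand. The last 2 lines are the upstream and downstream starts of Amy1, at chr3:113577751-113577850 and chr3:113574763-113574862 on the minus strand.
Bpifa2: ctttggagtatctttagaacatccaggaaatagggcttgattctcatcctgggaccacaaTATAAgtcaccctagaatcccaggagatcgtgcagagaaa
Smr3a: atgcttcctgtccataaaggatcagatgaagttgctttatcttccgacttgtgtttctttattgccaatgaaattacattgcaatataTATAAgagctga
Car6: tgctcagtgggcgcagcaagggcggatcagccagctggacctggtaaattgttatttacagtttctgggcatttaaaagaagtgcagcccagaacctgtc
Chia1: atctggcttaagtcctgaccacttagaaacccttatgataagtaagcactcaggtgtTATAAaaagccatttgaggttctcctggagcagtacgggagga
Pip: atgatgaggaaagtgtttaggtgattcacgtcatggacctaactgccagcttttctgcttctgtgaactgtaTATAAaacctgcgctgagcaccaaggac
Amy1 upstream: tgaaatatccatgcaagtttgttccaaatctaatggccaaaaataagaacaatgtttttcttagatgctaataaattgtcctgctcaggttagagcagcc
Amy1 downstream: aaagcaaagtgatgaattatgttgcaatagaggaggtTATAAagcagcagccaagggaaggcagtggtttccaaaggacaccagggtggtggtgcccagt

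TATAA is the core of the TATA box, a sequence that places the start of transcription at many genes made in bulk by specialised cells. Among the 8 gland genes described in full below, which have 10 start windows of this length in RefSeq, 5 windows held TATAA on the strand of the gene. It lay 40 bases before the start in Bpifa2, 12 in Smr3a, 43 in Chia1, 28 in Pip and 63 at the downstream start of Amy1. Of 32851 such windows over 27025 genes, 7.48% held it. On the opposite strand TATAA occurred in 2 of the 10 windows and in 5.36% of all windows. The motif was chosen after the values were seen, and a match is a run of letters and not a known site. The starts of Amy1 lie 2988 bases apart. In the mouse the upstream start is known as the strong one of the parotid gland and the downstream one as a weaker start used in liver and other tissues, and counts per gene cannot tell them apart.

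Bpifa2 (gene 19194, chr2:154008276-154016073, plus strand) was read 477 and 2114 times in A53T replicates 1 and 2 and 972, 1727 and 1767 times in EV replicates 1, 2 and 3. Among the libraries without, it was read 0, 37 and 0 times in A53T replicates 3, 4 and 5 and 15 and 24 times in EV replicates 4 and 5. The library just inside the limit of 100 reads thus had 477 and the one just outside had 37. Bpifa2 averaged 96.1 ± 50.2 CPM in the libraries with gland reads and 0.727 ± 0.742 CPM in those without (SD, n = 5 each), where CPM are counts per 1000000 after scaling. The ratio of these means is 132, a value that the split itself sets.

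Across 17409 genes tested at a fixed share of mitochondrial ribosomal RNA, 5 passed an adjusted p of 0.05, all higher in the libraries with gland reads, which is 0.0287% of the genes. These were Bpifa2, Smr3a, Car6, 2310057J18Rik and Amy1, and 4 of them were on a list of 32 gene names for proteins that salivary glands secrete. Bpifa2 is among them because it made the split. No gene passed as lower. At an unadjusted p under 0.05 there were 590 higher and 266 lower genes, and the median log2 fold change over all genes was 0.00475. The count of 5 was not stable, and it fell to 0 without A53T replicate 5, EV replicate 2, EV replicate 3 or EV replicate 4, to 1 without EV replicate 1 or 5 and to 3 without A53T replicate 2. The 8 genes called gland genes here are Bpifa2 and genes chosen by their values in these libraries, not by known expression in glands. All 8 kept a positive fold change in each of 27 alternative fits, a sign that this choice largely fixed and that supports nothing. Of these fits 1, with the limit at 50 reads, was identical to the main fit, because this limit splits the libraries in the same way.

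**Figure D1:**
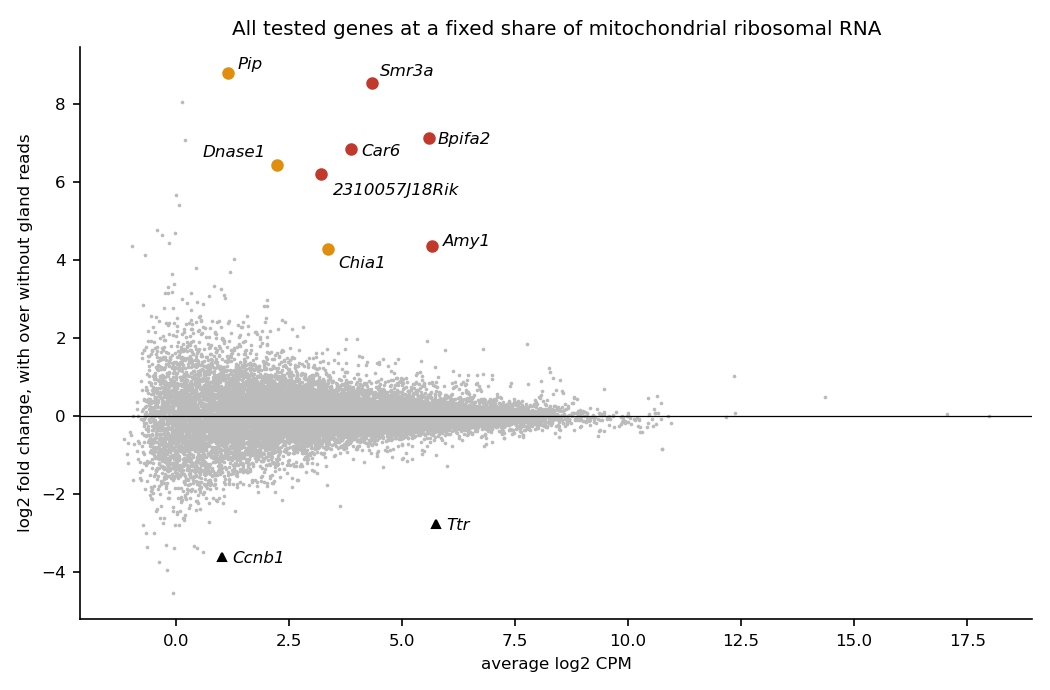
Log2 fold change, libraries with over libraries without gland reads, against average log2 CPM for each of 17409 tested genes (dots). Red points are the 5 genes past an adjusted p of 0.05, orange points the other 3 gland genes described in full, and black triangles Ttr and Ccnb1; the 8 gland genes lie between 4.27 and 8.79 on the log2 scale, where the highest, Pip, has no read in the libraries without and a fitted value that depends on the prior count.

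Smr3a (gene 20599, chr5:87991555-88008534, plus strand), a submaxillary gland protein known to depend on androgen, was read 184 and 941 times in A53T replicates 1 and 2 and 399, 561 and 828 times in EV replicates 1, 2 and 3. In the libraries without, it was read 0, 26 and 0 times in A53T replicates 3, 4 and 5 and 0 and 1 times in EV replicates 4 and 5. Every library with gland reads was above every library without, and A53T replicate 4 held 26 of the 27 reads on the low side. Such non-overlap, counted in CPM, was found for 138 genes higher in the libraries with gland reads, or 0.793% of those tested, and for 151 lower genes, or 0.867%. Smr3a averaged 40.1 ± 24.1 CPM in the libraries with gland reads and 0.250 ± 0.533 CPM in those without (SD, n = 5 each). The log2 fold change was 8.55 ± 1.19 (SE), with an adjusted p of 0.0315 from edgeR's quasi-likelihood test.

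Car6 (gene 12353, chr4:150187015-150201135, minus strand), the carbonic anhydrase that is secreted into saliva, was read 105 and 589 times in A53T replicates 1 and 2 and 396, 653 and 417 times in EV replicates 1, 2 and 3. Its reads in the libraries without were 0 in A53T replicates 3, 4 and 5, 4 in EV replicate 4 and 7 in EV replicate 5. The groups did not overlap, and A53T replicate 4, which had Bpifa2 and Smr3a reads, had no Car6 read. Car6 averaged 29.1 ± 14.2 CPM with gland reads and 0.108 ± 0.155 CPM without (SD, n = 5 each). At 6.84 ± 0.78 (SE) on the log2 scale, it had the smallest adjusted p of all genes, 0.00956 by edgeR's quasi-likelihood test.

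Amy1 (gene 11722, chr3:113555952-113577750, minus strand) encodes salivary amylase, which cuts starch. Its reads were 524 and 2353 in A53T replicates 1 and 2 and 691, 1719 and 1819 in EV replicates 1, 2 and 3, against 208, 84 and 61 in A53T replicates 3, 4 and 5 and 116 and 68 in EV replicates 4 and 5. The groups did not overlap, but Amy1 was read in every library, also in the 2 with no Bpifa2 read, at levels above those of the other gland genes there. Amy1 averaged 96.6 ± 57.8 CPM in the libraries with gland reads and 5.28 ± 2.57 CPM in those without (SD, n = 5 each), with a log2 fold change of 4.37 ± 0.65 (SE) and an adjusted p of 0.0412. The pancreatic amylase genes next to it, Amy2a1 to Amy2a5 and Amy2b, held at most 6 reads each over all 10 libraries. Amylase genes are near copies of each other, and the counting of reads that match several of them is not stated in the labels.

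2310057J18Rik (gene 67719, chr10:28972288-28986306, minus strand), a protein-coding gene for which no role is given here, was read 63 and 402 times in A53T replicates 1 and 2 and 200, 348 and 320 times in EV replicates 1, 2 and 3. It was read 0, 2 and 0 times in A53T replicates 3, 4 and 5 and 2 and 10 times in EV replicates 4 and 5. The groups did not overlap. It averaged 18.2 ± 9.78 CPM with gland reads and 0.135 ± 0.198 CPM without (SD, n = 5 each), a log2 fold change of 6.20 ± 0.90 (SE) with an adjusted p of 0.0376. Adjusted p for this gene and for Amy1 was above 0.05 in 16 of 27 alternative fits each.

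A further 3 secreted proteins were high in the same libraries without passing the threshold. Chia1 (gene 81600, chr3:106113382-106132118, plus strand), the acidic chitinase, was read 111 and 467 times in A53T replicates 1 and 2 and 264, 410 and 236 times in EV replicates 1, 2 and 3, against 12, 1 and 3 times in A53T replicates 3, 4 and 5 and 22 and 17 times in EV replicates 4 and 5. Dnase1 (gene 13419, chr16:4036958-4040024, plus strand), a secreted nuclease, was read 37, 208, 79, 215 and 147 times in the 5 libraries with gland reads in the same order, and 0, 11, 3, 0 and 0 times in the others. Pip (gene 18716, chr6:41847549-41852065, plus strand), prolactin-induced protein of saliva and tears, was read 28, 78, 37, 107 and 72 times and in none of the libraries without. Groups did not overlap for any of these genes.

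Chia1 averaged 19.9 ± 9.56 CPM with gland reads and 0.547 ± 0.448 CPM without (SD, n = 5 each), a log2 fold change of 4.27 ± 0.70 (SE) with an adjusted p of 0.0843. Dnase1 averaged 9.25 ± 5.29 CPM with gland reads and 0.139 ± 0.222 CPM without (SD, n = 5 each), at 6.43 ± 1.27 (SE) on the log2 scale with an adjusted p of 0.360. Pip averaged 4.31 ± 2.19 CPM with gland reads (SD, n = 5), which is at least 138-fold higher than the level that 3 reads over the 5 libraries without would give, and its adjusted p was 0.0861. Dnase1 overlaps Trap1 on the opposite strand, and without knowledge of strand in the counting their reads may be mixed. A count of 0 allows up to 3 reads, a limit of 0.137 to 0.238 CPM by library that covers counting error only.

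**Figure D2:**
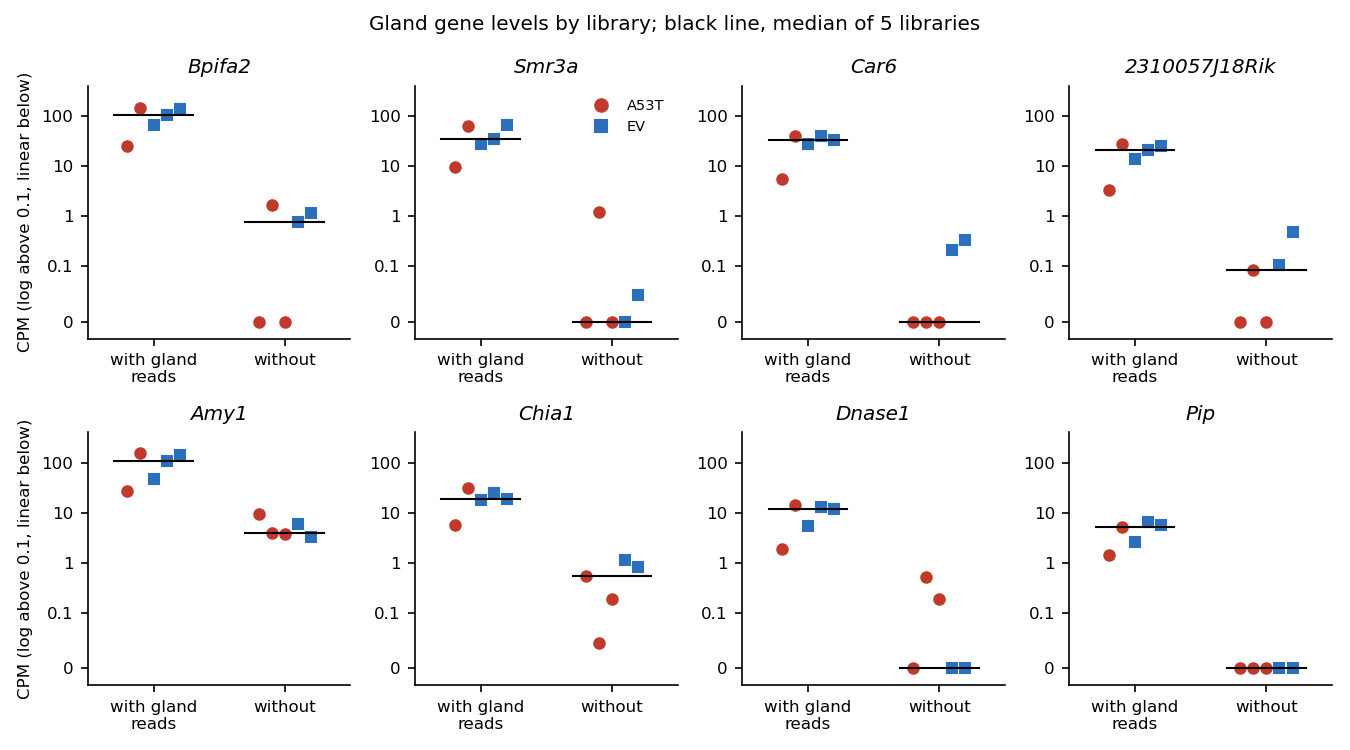
CPM of the 8 gland genes in each of the 10 libraries, on a log scale above 0.1 CPM and a linear one below, for libraries with (left) and without (right) gland reads; circles are A53T, squares EV, and the black line is the median of 5 libraries. No panel shows overlap between both sides, A53T replicate 1 is the lowest library with gland reads in each panel, and Amy1 alone is above 1 CPM in all libraries without.

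Together the 8 genes held 8.93 to 45.3 of each 100000 reads in the libraries with gland reads and 0.358 to 1.40 in those without. By this share A53T replicate 1 was the lowest of the libraries with gland reads and EV replicate 3 the highest. Summed, the 8 genes reached 79.4 and 482 CPM in A53T replicates 1 and 2 and 210, 352 and 444 CPM in EV replicates 1, 2 and 3. In the libraries without, the sums were 10.0, 7.45 and 4.17 CPM in A53T replicates 3, 4 and 5 and 8.25 and 6.07 CPM in EV replicates 4 and 5, most of it Amy1.

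Within the 5 libraries with gland reads, genes were ranked by how closely they kept to Bpifa2. Likeness to Bpifa2 was measured by the SD, over these 5 libraries, of the log2 ratio of a gene's reads to Bpifa2 reads. A gene counted as like Bpifa2 if it had at least 20 reads in each of them and at least 95% of its summed CPM there. The 6 genes that met both limits were, in order of rising SD, Smr3a (0.206), 2310057J18Rik (0.260), Dnase1 (0.280), Pip (0.359), Chia1 (0.394) and Car6 (0.398). Amy1, with 94.8% of its CPM in these libraries, fell just outside the limit at an SD of 0.265. Over 12785 genes with as many reads the median SD was 1.11 and the 5th percentile 0.785, and the lowest value, 0.203, belonged to Sat2, which had 69.0% of its CPM in these libraries. Of the 17 genes with a smaller SD than Car6, 11 were outside the gland genes described here, a set chosen by its values in these libraries. Among the 11 were Kcnc4, a potassium channel gene (0.283), and Mrps27, of the mitochondrial ribosome (0.330). These 11 had 46.9 to 69.0% of their CPM here. A low SD alone thus did not mark the gland genes. These are 5 points that share their libraries and the Bpifa2 reads in the ratio, given as a description.

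For each Bpifa2 read there were 0.325 to 0.469 Smr3a reads, 0.220 to 0.407 Car6 reads and 0.132 to 0.206 reads of 2310057J18Rik. Amy1 gave 0.711 to 1.11 reads per Bpifa2 read, Chia1 0.134 to 0.272, Dnase1 0.0776 to 0.124 and Pip 0.0369 to 0.0620. The highest of these ratios was at most 2.03 times the lowest for any gene. For comparison, P2ry12, a receptor of microglia, gave 0.174 to 7.96 reads per Bpifa2 read and Snap25, a synaptic protein of neurons, 1.70 to 6.74, while Kcnc4, named above, kept as close a ratio as the gland genes. Per kilobase of exon, the level of Smr3a was 0.541 of that of Bpifa2 and the level of Amy1 0.531, followed by Car6 at 0.215, 2310057J18Rik at 0.138, Chia1 at 0.133, Pip at 0.0764 and Dnase1 at 0.0626.

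**Figure D3:**
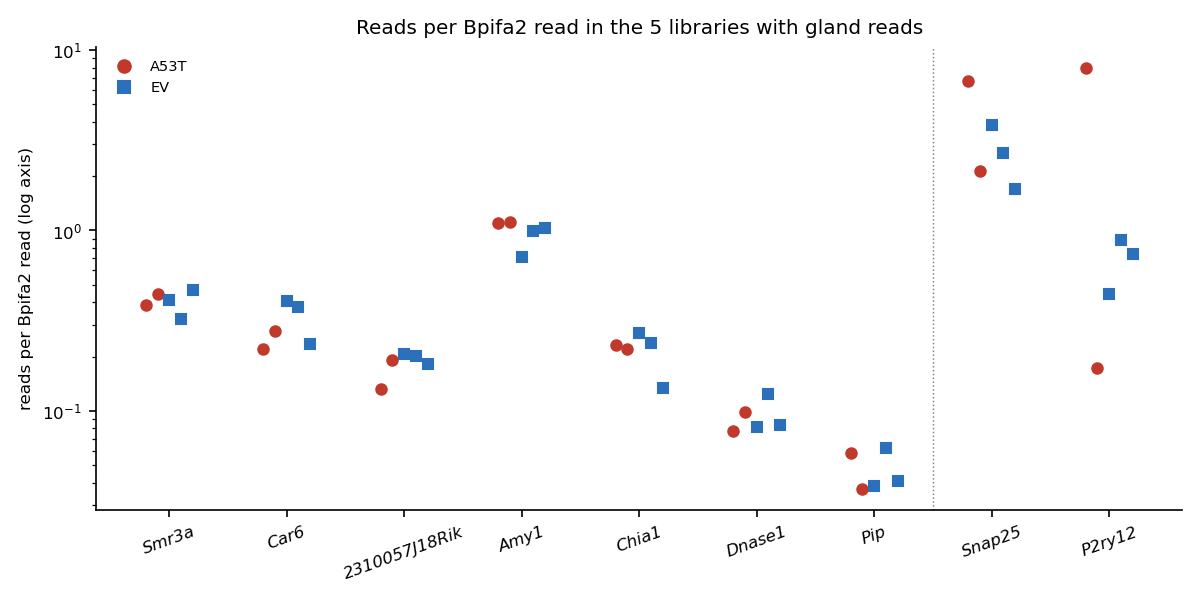
Reads of each gene per Bpifa2 read (log axis) in the 5 libraries with gland reads; circles are A53T, squares EV. To the left of the dotted line are 7 gland genes, each within 2.03-fold between libraries, and to the right are Snap25 and P2ry12, which spread 3.97-fold and 45.9-fold.

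The few gland reads in the libraries without did not always keep these ratios. Among Smr3a plus Bpifa2 reads, Smr3a took 24.5 to 31.9% in the libraries with gland reads. In A53T replicate 4 it took 26 of 63 reads, or 41.3% with an exact 95% binomial interval of 29.0 to 54.4%, and in EV replicate 5 it took 1 of 25, or 4.0% with an interval of 0.101 to 20.4%. The interval of A53T replicate 4 reaches into the range of the libraries with gland reads and that of EV replicate 5 stays below it. Car6 took 18.0 to 28.9% of Car6 plus Bpifa2 reads in the libraries with gland reads, 0 of 37 in A53T replicate 4, with an interval up to 9.49%, and 22.6% in EV replicate 5, with an interval of 9.59 to 41.1%. Amy1 took 41.6 to 52.7% of Amy1 plus Bpifa2 reads with gland reads and 69.4% or more without. EV replicate 4 had too few reads for a share of Smr3a or Car6. The intervals cover counting error only, and libraries with gland reads also differed beyond them. For Car6 the interval was 15.0 to 21.4% in A53T replicate 1 and 26.6 to 31.4% in EV replicate 1.

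Some further secreted proteins of salivary glands had few reads, nearly all in the same libraries, and others of the list, given below, did not keep to them. Those named here beyond Bpifa2, Smr3a, Car6 and Amy1 were chosen after their values were seen. Wfdc12, of a family of small protease inhibitors, was read 18 and 58 times in A53T replicates 1 and 2 and 13, 69 and 9 times in EV replicates 1, 2 and 3. Dcpp1, a demilune cell and parotid protein, was read 1, 37, 11, 44 and 38 times in the same order, and its near copies Dcpp2 and Dcpp3 held 33 and 49 reads in all. The secretoglobin genes Scgb2b27 and Scgb1b27 had 82 and 121 reads. None of these 6 genes had a read in any library without. Against a floor of 3 reads over the 5 libraries without, Wfdc12 was at least 71.7-fold higher, Dcpp1 at least 56.3-fold, Scgb1b27 at least 52.0-fold, Scgb2b27 at least 35.2-fold, Dcpp3 at least 21.1-fold and Dcpp2 at least 14.2-fold. Reads of the Dcpp genes may have been split among near-identical copies.

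Gm5154, an RNA of unassigned role outside the list, was read 12, 30, 31, 29 and 49 times in the libraries with gland reads and 0 times in the others, at least 64.9-fold higher. Cst10, of the cystatin family of protease inhibitors, was read 11, 28, 16, 92 and 41 times with gland reads and 0, 1, 0, 9 and 0 times without. Crisp1, a cysteine-rich secreted protein outside the list, overlapped between groups, with 7, 12, 23, 8 and 76 reads with gland reads and 10 reads in A53T replicate 4 alone among the others. Of these, Wfdc12, Gm5154 and Cst10 passed the filter on low counts and none passed the threshold.

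Not all secreted proteins of the gland list came along. Of its 32 members 29 had a row and 10 passed the filter on low counts, of which 4 passed the threshold as higher, 8 had a positive fold change and 2 a negative one. The median log2 fold change of the tested members was 5.60, against 0.00475 over all genes, and 5.27 with Pip and Wfdc12, the 2 unread in the libraries without, set at their lower bounds. The tested members include Bpifa2, which made the split, and genes that passed the filter only through the libraries where they are high, so nothing is read from this contrast. Lpo, the peroxidase of saliva, was read 3, 18, 83, 24 and 30 times with gland reads and 0, 4, 2, 52 and 17 times without, which overlaps. Ltf and Lyz1, lactoferrin and a lysozyme that neutrophils and other cells also make, had 209 and 50 reads with gland reads and 186 and 196 without. Wfdc18 had 20 reads with and 29 without, and Dmbt1 had 12 reads, all in A53T replicate 5. Prol1, Smgc, Smr2, Prh1, Prp2 and Mucl1, which include a mucin and proline-rich proteins of saliva, had no read in any library.

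Summed over the list, salivary secreted proteins reached 74.0 to 424 CPM with gland reads, with a median of 325, and 5.88 to 16.5 CPM without, with a median of 13.9. This sum holds Bpifa2, which made the split, so nothing is read from its separation. Genes of salivary ducts summed to 2.82 to 11.7 CPM with gland reads and 2.33 to 8.89 CPM without, with medians of 3.46 and 3.06. Klk1, the tissue kallikrein, was read 0 and 5 times in A53T replicates 1 and 2, 13, 18 and 24 times in EV replicates 1, 2 and 3, and never in the libraries without, at least 25.8-fold higher. The other kallikreins listed, which granular duct cells of male mice make in bulk, had 1 read or none each over all libraries. Of the 21 duct genes 9 had no read at all, and the 2 that were tested, Cftr and Egf, an ion channel and a growth factor, gave log2 fold changes of 1.09 ± 0.80 and -1.52 ± 1.03 (SE). Near-identical kallikrein copies may share reads.

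**Figure D4:**
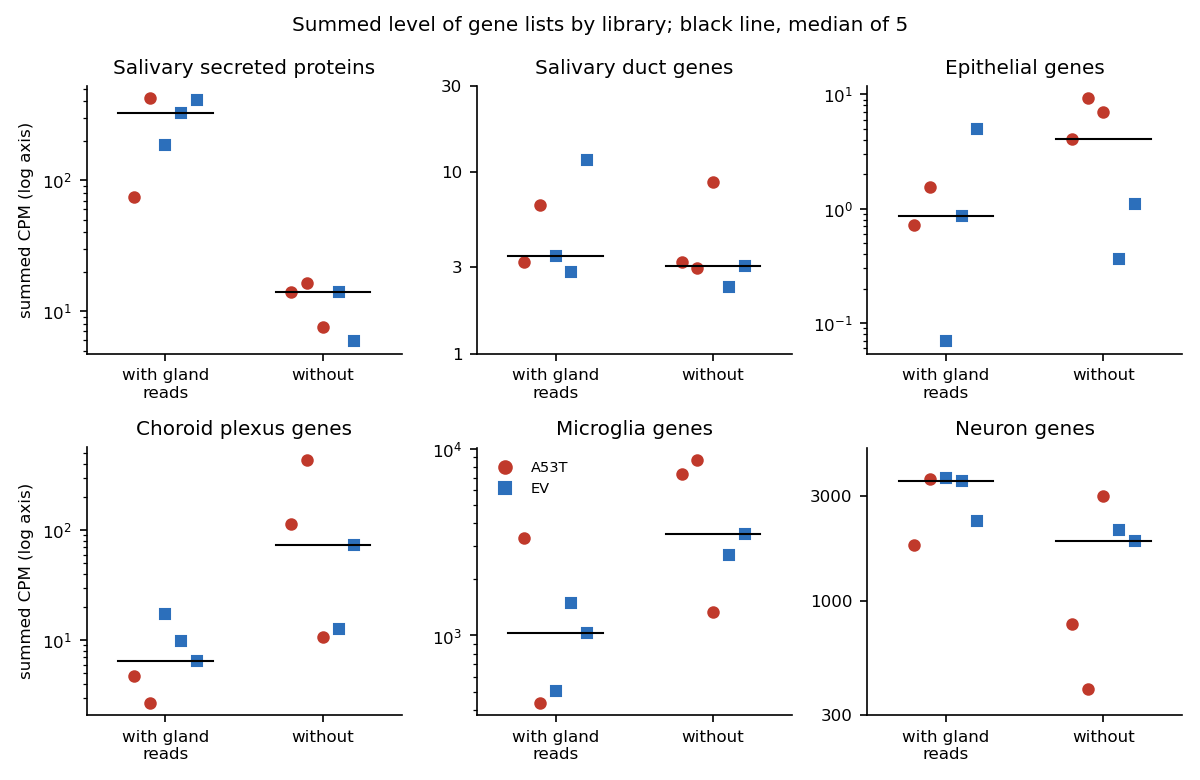
Summed CPM of 6 gene lists in each library (log axes), for libraries with (left) and without (right) gland reads; circles are A53T, squares EV, and the black line is the median of 5. The salivary secreted list lies at 74.0 to 424 against 5.88 to 16.5 CPM, and it holds Bpifa2, which made the split. Nothing is therefore read from its separation. Duct, epithelial, choroid plexus, microglia and neuron lists overlap.

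Genes of the secretory machinery and identity of acini, such as Slc12a2, a chloride co-transporter, and Xbp1, a factor of secretory cells, are also used by brain cells. Of 11 such genes 7 were tested and none passed, with a median log2 fold change of 0.0896, which turned to -0.295 without the covariate. They summed to 207 to 383 CPM with gland reads and 210 to 658 CPM without. Slc12a2 gave a log2 fold change of -0.06 ± 0.22 and Xbp1 0.30 ± 0.25 (SE), and Slc12a2, Fgfr2, Sox10 and Xbp1 held most of the reads. Members with too few reads to test leaned to the libraries with gland reads in 3 of 4 cases: Bhlha15, a factor of secretory cells, had 43 reads with and 16 without, Spdef 56 and 16, and Elf5 92 and 4, of which 80 lay in EV replicate 1. Aqp5, the water channel of acini, had 4 and 18. Epithelial genes such as keratins and cadherin 1, which gland cells share with other epithelia, had too few reads to test. Their 16 members together held 115 reads with gland reads and 432 without. Krt8, a keratin of simple epithelia, was read 3 times with gland reads and 111 times without, and Krt18, its partner, 58 and 162 times.

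Markers of other organs gave a mixed picture, with no gene past the threshold. Nasal gland genes held 21 reads with gland reads and 64 without, and 8 of their 14 rows had none. Exocrine pancreas genes held 90 and 208 reads, with 14 of 19 at 0 in all libraries, and the 1 tested gene, Cela1, an elastase, gave -3.39 ± 1.20 (SE) on the log2 scale. Pnlip, pancreatic lipase, was not tested and had 74 reads with gland reads, in A53T replicate 2 (46) and EV replicates 1 (12) and 3 (16), and 13 without. Milk genes held 5 reads with gland reads and 10 without, liver genes 90 and 111, adipose genes 48 and 45 and pituitary genes 26 and 48, and no member of these lists passed the filter. Skeletal muscle genes summed to 1.35 to 9.51 CPM with gland reads and 2.18 to 7.91 CPM without, and the 4 tested members had positive fold changes with a median of 0.60. Among skin genes 3 were tested, with a median of 0.0862, which was 0.964 without the covariate and -0.08 when a microglial minus neuronal score replaced it. Sbsn, a skin gene with 2420 reads in all, lay at 14.1 to 23.2 CPM with gland reads and 8.65 to 12.2 CPM without, with no overlap, and gave 0.78 ± 0.24 (SE) with an adjusted p of 0.984.

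Blood and immune lists were described in the same way. All 5 erythrocyte genes had positive fold changes, with a median of 1.36 and adjusted p from 0.669 to 0.984, and summed to 46.5 to 167 CPM with gland reads and 37.5 to 161 CPM without. Hba-a1, an α-globin, gave 1.36 ± 0.32 (SE). The 4 tested genes of B and plasma cells had a median of 1.31, which turned to -0.291 without the covariate. Igkc, the κ light chain, gave 2.97 ± 1.05 (SE) with an adjusted p of 0.984. The erythrocyte median was 0.416 without the covariate. Choroid plexus genes summed to 2.697 to 17.4 CPM with gland reads and 10.6 to 436 CPM without, which overlap. Of 4 tested members 3 had negative fold changes and Clic6 a positive one of 0.28 ± 0.64 (SE), with a median of -1.72 and of -2.99 without the covariate. None of these genes passed the threshold.

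Brain cell lists were described with and without the share of mitochondrial ribosomal RNA in the fit. Microglial genes summed to 436 to 3306 CPM with gland reads and 1343 to 8731 CPM without, and neuronal genes to 1789 to 3639 CPM with gland reads and 393 to 2991 CPM without, both with overlap. Fewer cells of a type and less RNA per cell cannot be told apart in such bulk libraries. With the covariate the median log2 fold change of the 15 microglial genes was -0.41, all 15 negative, and without it -1.81. The median of the 12 neuronal genes was -0.07 with the covariate and 0.79 without, that of the 12 striatal neuron genes -0.06 and 0.84, and that of the 10 astrocyte genes 0.08 and 0.68. The 8 oligodendrocyte genes had a median of -0.31 with the covariate and -0.996 without, and the 8 endothelial genes 0.61 and 0.11. Astrocyte genes turned to -0.11 with the microglial minus neuronal score as covariate, and no gene of these lists passed the threshold in the fit with the mitochondrial covariate. The median of the salivary secreted list was 5.60 with the covariate and 5.76 without. That list holds Bpifa2, which made the split, so nothing is read from its contrast with the brain cell lists. The part of cell makeup in the gland reads was not tested.

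**Figure D5:**
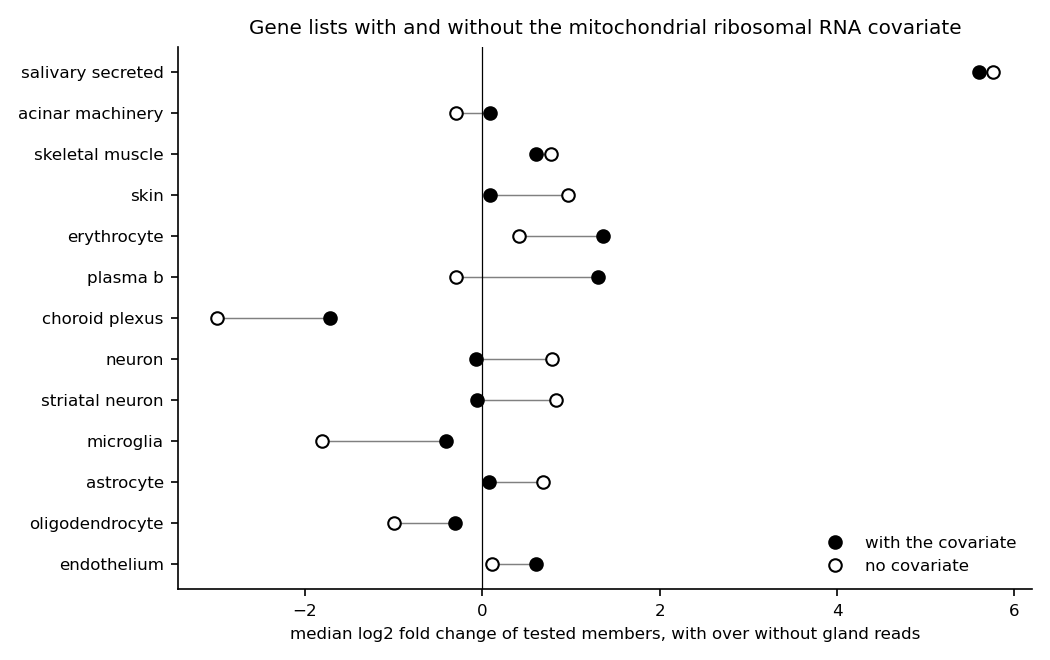
Median log2 fold change, libraries with over libraries without gland reads, of the tested members of each list with at least 3 of them, with (filled) and without (open) the share of mitochondrial ribosomal RNA as a covariate. The salivary secreted list lies at 5.60 and 5.76, and it holds Bpifa2, which made the split, so nothing is read from its contrast with the others. Acinar machinery, plasma and B cell, neuron and striatal neuron lists change sign.

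Whether the gland reads went with the vector could be tested, since the split uses libraries of both. Bpifa2 lay between 0 and 143 CPM in A53T libraries, with a median of 1.71, and between 0.778 and 140 CPM in EV libraries, with a median of 67.2. The mean of log2(CPM + 1) differed by -1.72 (A53T minus EV), and the ranges overlapped, with p = 0.333 by an exact permutation test, 2-sided, of 5 libraries against 5, whose smallest possible p is 0.00794. For Smr3a the difference was -1.11 with an exact permutation p of 0.484, for Car6 -1.59 with 0.278, and for the summed salivary secreted list -1.03 with 0.556. Adjusted over these 4 measures, every p was 0.556. Without A53T replicate 3, which held few transgene reads, the difference for Bpifa2 was -1.06 with an exact permutation p of 0.611. Without A53T replicate 2 it was -2.85 with an exact permutation p of 0.159, and that for Car6 was -2.52 with 0.0952. Leaving out each library in turn gave -2.85 to -1.03 for Bpifa2, -2.09 to -0.40 for Smr3a, -2.52 to -1.04 for Car6 and -1.91 to -0.42 for the summed list, and no p fell below 0.05. Exact sign flips within replicate numbers gave p = 0.25 for Bpifa2, 0.562 for Smr3a, 0.0625 for Car6 and 0.5 for the summed list. For Car6 this is the smallest p that such flips can give here. Car6 was lower in A53T than in EV at every number, with only 4 and 7 EV reads at numbers 4 and 5.

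In the fit across genes with the split and the covariate, A53T against EV called 1 of 17409 genes, or 0.00574%, and this was the transgene, at 12.25 ± 1.44 (SE) on the log2 scale with an adjusted p of 0.0295 by edgeR. No gland gene of the 8 passed, each at an adjusted p of 0.9997, and none had an unadjusted p under 0.05. This fit holds the split, which Bpifa2 reads set, so it cannot show whether gland reads went with the vector. Without the split the count of calls was 0, and it was also 0 without A53T replicate 2 or 5 or without any 1 of the 5 EV libraries, and 2 without A53T replicate 1. The interaction of vector and split, which asks whether the difference between libraries with and without gland reads depended on the vector, called 0.0% of genes, with 620 at an unadjusted p under 0.05 and none of the 8 gland genes among them.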

How the data were processed

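Per the labels, stranded total RNA libraries were made from 0.5 ng of RNA with 5 and then 15 cycles of PCR and read as single reads of 75 nt. The authors deposited raw read counts per gene over 45906 rows, not normalized, and log2 values of the same rows, the regularized logarithm (rlog) of the counts. Tools in the submitters' processing notes are STAR 2.7.2b, cutadapt 2.5, DESeq2 1.24.0 and featureCounts 1.6.4, and builds GRCm38.p6 and mm10, listed without role or order. The labels do not state whether reads were counted by strand or by molecule, so intervals and floors cover counting error only.

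Libraries were split at 100 Bpifa2 reads. The counts were fitted in R 4.3.3 by the robust quasi-likelihood test of edgeR 4.0.16, with TMM scaling and edgeR's filter on low counts, with the percent of counts on mt-Rnr1 plus mt-Rnr2 as covariate. P-values were adjusted over all 17409 genes by the method of Benjamini and Hochberg at 0.05. A53T was tested against EV in the same fit with a vector term, alone and with the split by vector interaction, and for single values by exact permutation of log2(CPM + 1). The labels do not say that the mice were processed apart, so p-values measure the spread between these libraries. No libraries agreed within sampling noise, with chi-square per degree of freedom of at least 15.5 over 45 pairs.

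The split, the members and the 21 gene lists were chosen with earlier results of these data known. Named were Bpifa2, Smr3a and Car6, up to 20 higher and 10 lower genes past the threshold with at least 100 reads in all, up to 4 members with most reads in each list, and up to 8 genes most like Bpifa2. Alternatives were other covariates, DESeq2 1.42.0, limma-voom (limma 3.58.1), limma on the rlog values, other scalings, filters and splits, the replicate number as a block, and leaving out libraries. Promoters are from RefSeq, with all 8 gland genes matched by gene identifier.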

Additional observations from a re-analysis of the deposited data

Results flagged for a closer look

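Of 30 sets of 5 libraries checked for a library far from the rest of its set, 4 stood out, all among the libraries without gland reads. A rate of about 1 in 20 sets marked by chance would need independent, normally distributed values. These sets share their libraries and some hold counts of 0, so 4 is not read as more than chance. Smr3a reached 1.20 CPM in A53T replicate 4, where the next highest library without gland reads had 0.0478 CPM. 2310057J18Rik reached 0.478 CPM in EV replicate 5, against 0.104 CPM in the next library. The summed erythrocyte genes reached 160.6 CPM in A53T replicate 4, against 62.9 CPM in the next library. The summed choroid plexus genes reached 436 CPM in A53T replicate 4, against 113 CPM in A53T replicate 3. A53T replicate 4 also had the smallest share of mitochondrial ribosomal RNA, 10.9%. The part of these values in the gland reads was not tested.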

How the results depend on the processing

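In place of 5 genes called with against without gland reads, there were 7 with no covariate, which added Chia1 and Pip, 1 with the vector added, 1 with the microglial minus neuronal score as covariate, 26 with DESeq2 (24 higher and 2 lower, all 8 gland genes among the higher), 8 with limma on the rlog values, 0 with limma-voom, 3 with library totals alone, 2 with no filter, Pip (higher) and Gm40237 (lower), neither among the 5, 0 with the split at 500 reads, which moves A53T replicate 1, and 10 with the Bpifa2 level as a continuous term. Limma-voom gave 889 genes at an unadjusted p under 0.05 and the split at 500 reads 1540. Leaving out each library in turn gave 0 to 7 calls. After the data were seen, leaving out A53T replicates 3 and 4 together gave 3 calls, and A53T replicates 3 and 5 together 0. Over all tested genes, same-numbered libraries correlated at -0.367 to 0.309, and no A53T library correlated best with its own number. These correlations cannot show whether same-numbered mice were handled together, and the gland reads themselves followed the number closely. The replicate block gave 0 calls, with 1867 at an unadjusted p under 0.05. This fit could not decide, because only number 3 had a library on each side of the split, and there the vector differed as well. Log2 fold changes over the 27 alternatives were 4.10 to 14.15 for Bpifa2, 4.63 to 13.29 for Smr3a, 3.86 to 9.93 for Car6 and 2.89 to 4.95 for Amy1, and no gland gene reversed. The highest values of Bpifa2, Smr3a and Car6 came from the replicate block. Gland genes were chosen by their values in these libraries, so their constant sign supports nothing. For A53T against EV the 1 call became 0 without the split, with or without the covariate, 0 to 2 with each library left out, and 1 with the replicate block or without A53T replicates 3 and 4. Interaction calls stayed at 0 without the covariate. The cause of these changes was not tested. A count of 0 allows up to 3 reads, which limits what can be said of genes with few reads.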

Other observations

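Counting in the other direction, genes with at least 20 reads in each of the 5 libraries of one side and at least 95% of their summed CPM there numbered 7 for the libraries with gland reads, Bpifa2 included, and 2 for those without. Of the genes with as many reads on that side, these were 0.0547% of 12786 with gland reads and 0.0146% of 13741 without. The 2 were Ttr, the transthyretin that choroid plexus exports, and Ccnb1, a cyclin of dividing cells. Ttr was read 2, 0, 110, 34 and 0 times in A53T replicates 1 and 2 and EV replicates 1, 2 and 3, against 1972, 8067, 42, 97 and 1261 times in A53T replicates 3, 4 and 5 and EV replicates 4 and 5. Ccnb1 was read 12, 0, 0, 2 and 2 times with gland reads and 86, 82, 28, 57 and 113 times without. Log2 fold changes at a fixed share of mitochondrial ribosomal RNA were -2.77 ± 2.30 for Ttr and -3.62 ± 0.85 for Ccnb1 (SE), with adjusted p of 0.990 and 0.669 by edgeR. At a minimum of 10 reads the counts were 9 with gland reads and 3 without, and at 5 reads 11 and 15. With a minimum of 1 read in place of 20, the counts were 18 genes with gland reads (0.108% of 16714) and 59 without (0.325% of 18176). A list of genes found almost in one side alone is thus not particular to the gland reads at low counts.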
